A study of Mus musculus with 16 samples.

Results

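Zfp genes are the genes of the mouse named "zinc finger protein" with a number, and they were followed here through messenger RNA of rotator cuff muscle from 2 inbred strains with and without a tendon and nerve injury. A gene was a member where its symbol in the count table began with Zfp and a digit, which 271 of 11710 genes did. All 271 passed the filter on low counts and entered the test, which covered 11709 genes, and every one of them had counts in all 16 samples. By the annotation 268 are protein-coding, 2 are transcribed pseudogenes and 1 is antisense.

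The samples fall into 4 groups of 4: unoperated C57BL/6J (called BL6), operated C57BL/6J, unoperated MRL/MpJ (called MRL) and operated MRL/MpJ. BL6 is a standard laboratory strain, and MRL is known for unusually complete healing of some wounds. The operation removed the tendon of a rotator cuff muscle and cut its nerve supply, and no genetic change other than strain is given. The series text names the infraspinatus and the sample labels the supraspinatus, so the tissue is called rotator cuff muscle; sex, age and time after surgery are not given in the labels used here. The labels do not say that replicates were separate animals, so the p-values measure the spread between these samples. In bulk tissue, fewer cells of a type and less RNA per cell cannot be told apart.

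A zinc finger is a short fold of a protein held by a zinc ion. Most Zfp proteins carry rows of C2H2 fingers, which read DNA, joined by a linker that is much alike from finger to finger; many add a KRAB domain, which recruits TRIM28 and histone-modifying enzymes to silence retroelements and some genes. The name also covers unrelated proteins, such as the CCCH finger proteins Zfp36, Zfp36l1 and Zfp36l2, which bind AU-rich messenger RNAs and speed their decay, and the cytoskeletal LIM protein Zfp185. In muscle, Zfp genes are known among others for roles in the motor unit, in remodelling and in the choice between fat and muscle precursors.

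The repeated layout is visible in coding sequence. Stretches of 99 bases, each the first finger of the gene that lies between linkers exactly 1 repeat apart, are shown for 4 members with results below, from GENCODE M21 transcripts of GRCm38, 5′ to 3′ on the coding strand. Capitals mark the linker codons, 15 bases each. Zfp949 was the member with the largest rise in MRL over BL6, Zfp182 rose with surgery in both strains, and Zfp970 and Zfp971 are near-copies that fell together in BL6.

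Zfp949: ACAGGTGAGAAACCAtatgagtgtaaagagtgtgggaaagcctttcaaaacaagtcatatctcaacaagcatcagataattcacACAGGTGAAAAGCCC
Zfp182: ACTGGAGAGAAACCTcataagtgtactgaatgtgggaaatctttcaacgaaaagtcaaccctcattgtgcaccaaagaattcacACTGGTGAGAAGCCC
Zfp970: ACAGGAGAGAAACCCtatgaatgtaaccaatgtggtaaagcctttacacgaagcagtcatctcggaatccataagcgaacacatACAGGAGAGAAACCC
Zfp971: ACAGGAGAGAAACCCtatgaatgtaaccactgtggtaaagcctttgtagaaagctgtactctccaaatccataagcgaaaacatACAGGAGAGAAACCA

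The Zfp970 and Zfp971 stretches shared 87 of 99 bases (87.9%), against 72 of 99 (72.7%) for Zfp949 and Zfp182. Such likeness matters for counting: in 69 of the 271 members at least 10% of the 31-base words of the transcripts also occurred in another gene, on either strand, because of a near-copy or an overlapping gene. How the authors' counting treated reads that fit more than 1 gene, and whether it used strand, is not given in the sources used here, so the values of these members are uncertain. Among the other 202 members, 25 rose (12.4%, all genes 35.1%) and 99 fell (49.0%, all genes 32.8%) with surgery in BL6. In MRL 20 of the 202 rose (9.9%, all genes 22.3%) and 54 fell (26.7%, all genes 22.7%). Of the genes named below the 69 include Zfp106 (25.9% of words shared, most with Gm26899), Zfp36l1 (59.99%, most with Gm26669), Zfp697 (14.4%), Zfp593 (71.5%), Zfp422 (29.3%), Zfp335 (22.8%), Zfp367 (10.5%), Zfp703 (11.7%), Zfp970 (67.9%), Zfp971 (69.5%), Zfp979 (32.4%), Zfp28 (22.3%), Zfp90 (77.9%), Zfp729a (27.1%), Zfp758 (13.2%), Zfp963 (41.6%) and Zfp932 (48.3%).

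Total counts ran from 24323862 to 43552964 per sample, and in BL6 every operated total lay under every unoperated one. Values are CPM, counts per 1e+06 of each library's total after TMM scaling, which evens out composition between libraries. Members took 0.466 to 0.486% of counts in unoperated BL6, 0.298 to 0.428% in operated BL6, 0.430 to 0.529% in unoperated MRL and 0.364 to 0.504% in operated MRL. Summed CPM of the muscle fibre markers (Ckm, Acta1, Myh4, Ttn and Tnnt3) was 89348 to 140330 in unoperated and 38432 to 111220 in operated samples, and was high in every sample, as the tissue label states. Operated MRL replicate 4 stood apart from its group, with 11.8% mitochondrial counts against 20.1 to 24.9% in the others, and its values are given beside the results they touch. Operated BL6 replicate 4 and unoperated MRL replicate 1 held more macrophage marker signal than their groups (139 and 113 CPM summed over 5 genes, against at most 40.1 and 22.7 CPM).

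Zfp genes were mostly of low abundance. Their mean level over the 16 samples ran from 2.02 to 617 CPM with a median of 9.26. Per kilobase of exon the level ran from 0.263 to 59.2 CPM per kb with a median of 1.86. Zfp106 was highest at 59.2 CPM per kb, followed by Zfp768 at 15.7, Zfp651 at 15.1, Zfp91 at 14.3 and Zfp703 at 13.5.

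More Zfp genes fell than rose after the operation. In BL6, 160 of 271 members (59%) passed the edgeR quasi-likelihood test at an adjusted p under 0.05, against 67.9% of all genes tested. Of these, 35 rose (12.9%, all genes 35.1%) and 125 fell (46.1%, all genes 32.8%). The median member changed by -0.26 on the log2 scale, with quartiles of -0.66 and 0.14, against a median of 0.04 over all genes. Fewer members rose and more fell than in the background at every level of expression: below 5 CPM 14.1% rose and 36.6% fell, against 51.2% and 15.7% of all genes, and at 20 CPM or more 9.09% rose and 54.5% fell, against 26.9% and 42.9%. Of the 125 that fell, 110 (88%) had all 4 operated samples below all 4 unoperated ones, against 86.9% of all genes that fell, and of the 35 that rose 25 (71.4%) did not overlap, against 76.7%. Scaling by total counts in place of TMM gave 83 falls (30.6%, all genes 25%) and 39 rises (14.4%, all genes 37.9%). Rises then made up 32% of the members' calls in place of 21.9%, and 60.3% of all genes' calls in place of 51.7%.

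Markers of other cells moved with the operation in BL6. Summed CPM of the endothelial markers (Pecam1, Cdh5, Kdr and Tek) was 252 to 351 in unoperated and 497 to 630 in operated BL6. Mitochondrial counts were 12.2 to 14.2% of the total and then 17.4 to 23.8%, and muscle fibre markers went from 98194 to 140330 CPM to 38432 to 111220. Fibroblast markers (Pdgfra, Dcn, Col1a1, Col3a1 and Dpt) were at 548 to 1334 CPM in unoperated BL6 and at 805 to 1491 in operated replicates 1 to 3, with operated replicate 4 apart at 5261. In MRL the ranges before and after were 191 to 263 and 268 to 626 CPM for endothelial and 1118 to 1911 and 1433 to 2840 for fibroblast markers, and 10.97 to 11.6% and 11.8 to 24.9% for mitochondrial counts. Their part in the members' change was not tested.

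In MRL falls again outnumbered rises, with fewer calls. In that strain 100 of 271 members (36.9%) passed the test, against 45% of all genes. Of these, 29 rose (10.7%, all genes 22.3%) and 71 fell (26.2%, all genes 22.7%), and the median member changed by -0.13 on the log2 scale against 0.01 over all genes. As in BL6, fewer members rose and more fell than in the background at every level of expression. Below 5 CPM falls did not outnumber rises among members: 19.7% rose and 18.3% fell (all genes 29.4% and 9.71%). From 5 to 20 CPM 8.28% rose and 23.4% fell (all genes 25.7% and 17%), and at 20 CPM or more 5.45% rose and 43.6% fell (all genes 17.6% and 31.1%). Operated and unoperated samples did not overlap for 46 of the 71 that fell (64.8%, all genes 61.6%) and 20 of the 29 that rose (69%, all genes 66.3%). The counts lean on single libraries. Without operated MRL replicate 3 there were 19 rises and 44 falls (7.0% and 16.2%, all genes 14.9% each). Without unoperated MRL replicate 2 there were 46 falls (17.0%, all genes 17.2%), and without operated MRL replicate 4 there were 34 rises and 87 falls (12.5% and 32.1%, all genes 24.6% and 27.8%). With total-count scaling there were 26 rises (9.6%, all genes 17.4%) and 39 falls (14.4%, all genes 16.1%), a share of falls under the background; rises made up 40% of the members' calls in place of 29%, and 51.9% of all genes' calls in place of 49.6%.

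**Figure D1:**
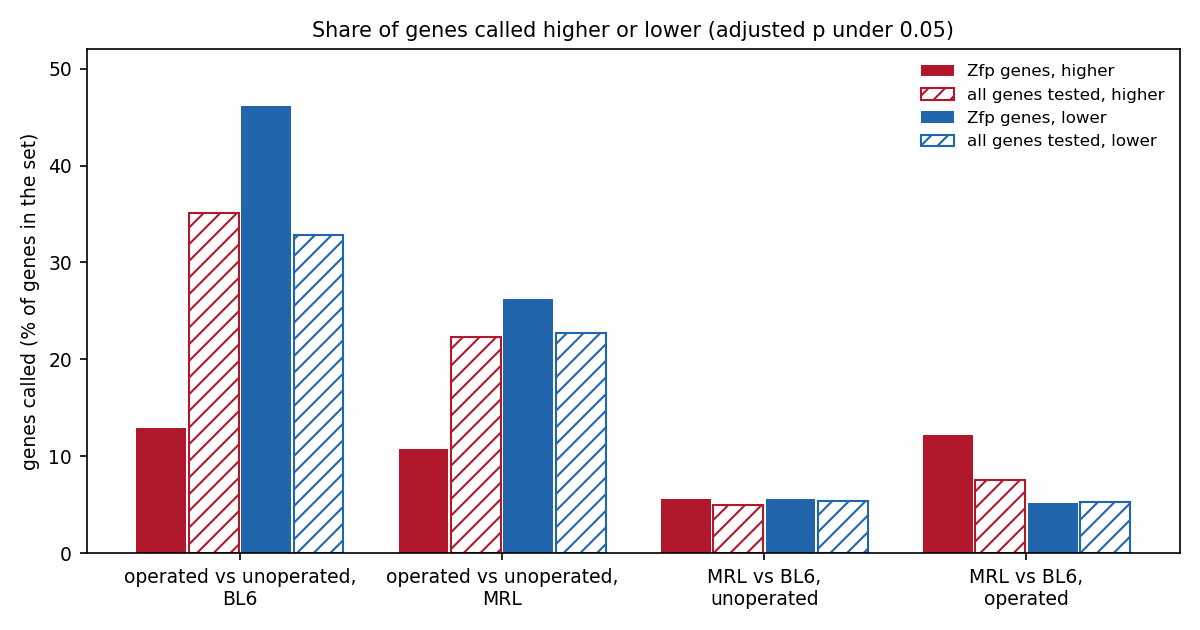
Percentage of the 271 Zfp genes (filled bars) and of all 11709 genes tested (hatched bars) called higher (red) or lower (blue) at an adjusted p under 0.05, in 4 comparisons of groups of 4 samples. In both strains the falls exceeded the rises among Zfp genes, 46.1% against 12.9% in BL6 and 26.2% against 10.7% in MRL, while among all genes they were nearly equal.

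Of the members called, 85 were common to both strains, which is 53.1% of the BL6 calls and 85% of the MRL calls. Over all genes tested the common calls were 60.2% of the BL6 calls and 90.7% of the MRL calls, so the overlap among members was no larger than elsewhere. Of the 85, 20 rose in both, 65 fell in both and 0 moved in opposite directions. These comparisons share no samples. Falls of at least 2-fold were called for 26 members in BL6 (9.6%, all genes 9.58%) and 5 in MRL (1.8%, all genes 3.48%). At that size falls were thus at the background in BL6 and under it in MRL. Rises of at least 2-fold were called for 10 members in BL6 (3.7%, all genes 16%) and 9 in MRL (3.3%, all genes 7.37%).

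**Figure D2:**
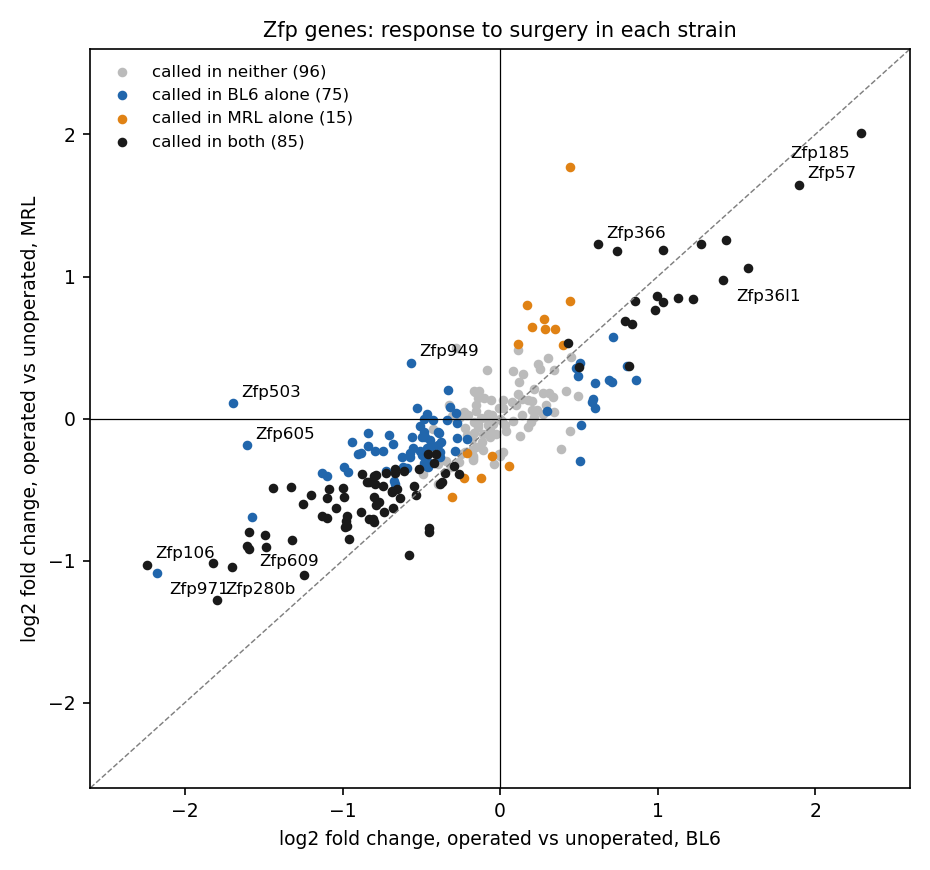
Log2 fold change of operated over unoperated samples for each of the 271 Zfp genes, in BL6 (x axis) and in MRL (y axis), coloured by the strain in which the gene was called; the dashed line marks equal change. The 85 genes called in both strains lie in the lower left (65 genes) and upper right (20 genes), and the genes that fell most in BL6, such as Zfp106 at -2.24, lie above the dashed line.

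The largest rise in BL6 was that of Zfp185 (chrX:72987339-73031543, plus strand), an actin-binding LIM protein. It was at 1.59, 1.77, 1.59 and 1.11 CPM in the 4 unoperated BL6 samples and at 5.29, 5.58, 4.94 and 13.8 in the operated ones (log2 fold change 2.29, SE 0.40, edgeR adjusted p = 0.0002). In MRL it went from 1.47, 1.099, 1.19 and 1.16 CPM to 2.48, 2.98, 8.88 and 5.45 (log2 fold change 2.01, SE 0.41, edgeR adjusted p = 0.00238). The operated samples lay above the unoperated ones in both strains, and operated BL6 replicate 4 was the highest of all.

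Zfp57 (chr17:37001163-37010635, plus strand), which protects the methylation of imprinted genes, was near the bottom of the measured range before surgery. It was at 0.841, 1.01, 0.819 and 1.03 CPM in unoperated and 4.28, 2.67, 2.83 and 4.01 in operated BL6 (log2 fold change 1.90, SE 0.26, edgeR adjusted p = 3.75e-05). In MRL it was at 1.77, 1.02, 1.29 and 1.54 and 4.71, 3.75, 6.18 and 3.03 CPM (log2 fold change 1.65, SE 0.26, edgeR adjusted p = 0.000682). Groups did not overlap in either strain.

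Among members with a mean of at least 2 CPM and groups that did not overlap, the others in the 5 largest rises of a strain were Zfp697, Zfp948, Zfp36l1, Zfp366 and Zfp810. Zfp948 (chr17:21567008-21588699, plus strand) went from 4.93 ± 0.502 CPM (SD, n = 4) to 13.3 ± 2.18 in BL6 (log2 fold change 1.43, SE 0.19, edgeR adjusted p = 3.11e-05) and from 6.53 ± 0.313 to 15.6 ± 4.51 in MRL (log2 fold change 1.25, SE 0.19, edgeR adjusted p = 0.00066). Its rise in MRL was carried by 3 samples at 17.3 to 18.2 CPM, while operated replicate 4 was at 8.87 CPM. Zfp366, a corepressor of nuclear receptors known from dendritic cells, was at 7.24, 8.48, 8.42 and 8.88 CPM in unoperated and 24.5, 22.7, 19.6 and 10.7 CPM in operated MRL (log2 fold change 1.23, SE 0.20, edgeR adjusted p = 0.000902), and it rose in BL6 (0.62, adjusted p = 0.0119; difference between the changes 0.61, adjusted p = 0.308). Operated MRL replicate 4 again was the lowest, and the summed CPM of 4 endothelial markers was lowest there too (268 against 521 to 626 in the others); the part of cell content in this result was not tested. Zfp810 rose too (1.27, adjusted p = 0.00205 in BL6; 1.23, adjusted p = 0.00641 in MRL).

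**Figure D3:**
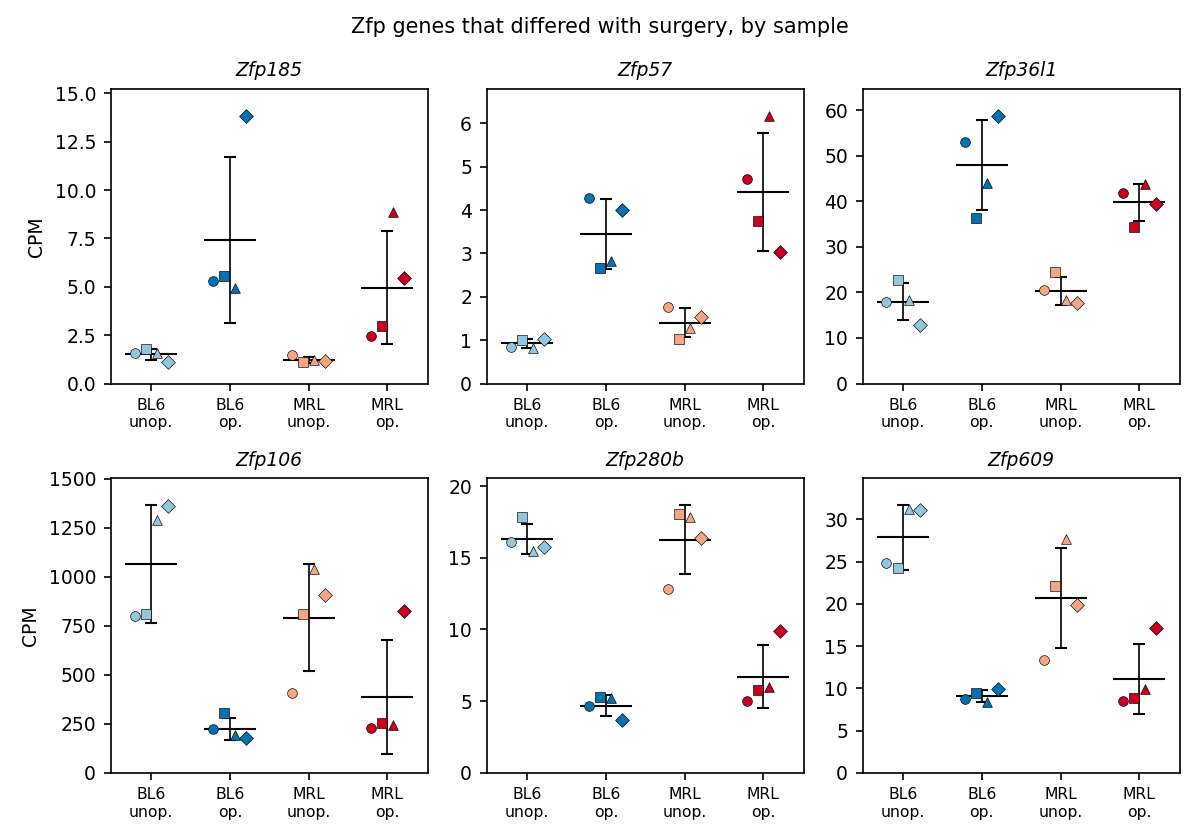
CPM of 6 Zfp genes in each of the 16 samples (y axes, linear from 0), by group; marker shapes are replicates 1 (circle), 2 (square), 3 (triangle) and 4 (diamond), and lines with bars are the mean and SD of 4 samples. The upper 3 genes rose with surgery in both strains; in the lower 3, operated MRL replicate 4 (diamond) lies above the other operated MRL samples, for Zfp106 at 826 CPM.

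The largest fall in BL6 was that of Zfp106 (chr2:120506820-120563843, minus strand), the most abundant member, an RNA-binding protein whose loss in mice causes wasting of motor neurons and muscle. It was at 799.7, 809, 1291 and 1360.3 CPM in unoperated BL6 and 225, 305, 191 and 179 in operated BL6 (log2 fold change -2.24, SE 0.41, edgeR adjusted p = 0.000276), with no overlap between groups. In MRL it was at 406, 812, 1039 and 907 CPM in unoperated and 228, 254, 243 and 826 in operated samples (log2 fold change -1.03, SE 0.40, edgeR adjusted p = 0.0461). There the groups overlapped, with operated replicate 4 inside the unoperated range. Without that library the log2 fold change in MRL was -1.71 with adjusted p = 0.000395. It was -0.86 with adjusted p = 0.133 without operated replicate 3, and it was called in 13 of 27 other settings tried, with the call lost on leaving out unoperated MRL replicate 2, 3 or 4, operated MRL replicate 1, 2 or 3, or any of 6 BL6 libraries (unoperated 1 to 4, operated 1 and 3).

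Zfp280b (chr10:76032650-76043234, plus strand) fell in both strains. It was at 16.1, 17.9, 15.5 and 15.7 CPM in unoperated and 4.64, 5.27, 5.19 and 3.67 in operated BL6 (log2 fold change -1.80, SE 0.19, edgeR adjusted p = 1.12e-05), and at 12.8, 18.04, 17.8 and 16.4 and 5.03, 5.79, 5.99998 and 9.92 in MRL (log2 fold change -1.28, SE 0.19, edgeR adjusted p = 0.000629). Neither strain's groups overlapped. Zfp385b, which carries fingers of the kind that bind double-stranded RNA, went from 32.3 ± 4.199 CPM (SD, n = 4) to 9.94 ± 1.304 in BL6 (log2 fold change -1.70, SE 0.17, edgeR adjusted p = 8.77e-06) and from 34.2 ± 4.66 to 16.6 ± 4.09 in MRL (log2 fold change -1.05, SE 0.17, edgeR adjusted p = 0.000724).

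The near-copies Zfp970 and Zfp971, whose fingers are printed above, lie on chromosome 2 and were also among the 5 largest falls in BL6. Zfp971 was at 3.48, 2.705, 3.94 and 4.14 CPM in unoperated and 0.888, 0.426, 1.11 and 0.711 in operated BL6 (log2 fold change -2.18, SE 0.49, edgeR adjusted p = 0.00127), and Zfp970 fell by a log2 fold change of -1.82 (adjusted p = 0.000862). In MRL Zfp971 was at 1.13, 3.32, 4.23 and 3.71 and 1.38, 0.659, 0.675 and 3.03 CPM and did not pass the test (-1.09, adjusted p = 0.067). Since their reads may be exchanged, they do not count as independent observations.

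Among the largest falls in MRL were Zfp687, a subunit of a chromatin reader complex with Zmynd8, and Zfp174, a SCAN domain protein. Zfp687 was at 22.8 ± 3.91 CPM (SD, n = 4) in unoperated and 10.6 ± 3.53 in operated MRL (log2 fold change -1.10, SE 0.20, edgeR adjusted p = 0.00147), and in BL6 it changed by -1.24, adjusted p = 0.000114. Zfp174 changed by -0.85, adjusted p = 0.0102 in MRL and by -1.32, adjusted p = 0.000241 in BL6, on the log2 scale.

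The members were then read by role, with lists chosen when earlier results of these data were known. Each list is small, and its counts stand beside a background in which 35.1% of all genes rose and 32.8% fell in BL6, and 22.3% rose and 22.7% fell in MRL. Of the 3 CCCH proteins that speed RNA decay, 3 rose in BL6 (all genes 35.1%) and 2 in MRL (all genes 22.3%), with median log2 fold changes of 0.79 and 0.69. Zfp36l1 (chr12:80107754-80113013, minus strand) was at 17.99, 22.8, 18.3 and 12.9 CPM in unoperated and 53.04, 36.3, 43.96 and 58.8 in operated BL6 (log2 fold change 1.42, SE 0.17, edgeR adjusted p = 2.02e-05). In MRL it was at 20.6, 24.5, 18.3 and 17.7 and 41.8, 34.3, 43.7 and 39.4 CPM (log2 fold change 0.97, SE 0.17, edgeR adjusted p = 0.0013), again without overlap. Zfp36l2 rose in both strains (0.79, adjusted p = 0.00423 in BL6; 0.69, adjusted p = 0.017 in MRL, 0.0509 without unoperated MRL replicate 2).

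Zfp36 itself, also called tristetraprolin, was at 26.04, 39.5, 36.6 and 42.2 CPM in unoperated and 61.6, 54.6, 44.96 and 40.5 CPM in operated BL6. The groups touched, with operated replicate 4 under the highest unoperated sample (log2 fold change 0.48, SE 0.17, edgeR adjusted p = 0.0223; 0.0731 without unoperated replicate 1 and 0.0815 without operated replicate 1). In MRL the test was not passed (0.35, adjusted p = 0.104). Summed macrophage markers, from cells in which these genes are active, were 10.6 to 28.6 CPM in unoperated and 20.1 to 139 in operated BL6, and 17.8 to 113 and 29.9 to 55.0 in MRL; their part in the result was not tested. Of the CCR4-NOT deadenylase subunits that these proteins recruit, 11 of 11 were tested. In BL6 1 rose (9.09%, all genes 35.1%) and 6 fell (54.5%, all genes 32.8%), and in MRL 1 rose (9.09%, all genes 22.3%) and 4 fell (36.4%, all genes 22.7%).

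Promoter windows of 300 bases, 250 before to 50 after the start, are shown for the pair of CCCH genes that the RefSeq table for GRCm38.p6 holds: Zfp36 at chr7:28379179-28379478 and Zfp36l1 at chr12:80112964-80113263, both on the minus strand and written 5′ to 3′. Capitals mark the CArG box, the motif of serum response factor, searched on both strands together with CAGCTG, the motif of many muscle E-boxes.

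Zfp36: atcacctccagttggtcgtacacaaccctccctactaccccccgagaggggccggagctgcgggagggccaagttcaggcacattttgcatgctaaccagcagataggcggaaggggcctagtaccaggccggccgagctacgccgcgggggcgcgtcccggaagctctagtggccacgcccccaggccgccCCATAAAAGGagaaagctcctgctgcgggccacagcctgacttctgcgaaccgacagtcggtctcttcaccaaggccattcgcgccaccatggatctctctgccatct
Zfp36l1: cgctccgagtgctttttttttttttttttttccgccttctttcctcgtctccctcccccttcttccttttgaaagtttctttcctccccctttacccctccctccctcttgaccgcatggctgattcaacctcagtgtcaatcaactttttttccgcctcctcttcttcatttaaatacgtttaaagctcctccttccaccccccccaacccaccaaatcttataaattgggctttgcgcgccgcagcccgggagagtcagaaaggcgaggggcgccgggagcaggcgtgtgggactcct

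The Zfp36 window held 1 CArG box and no CAGCTG; the Zfp36l1 window held neither. Windows were matched for 221 of the 271 members (270 windows), of which 1.11% held a CArG box and 17.8% a CAGCTG. The shares were 1.33% and 15.83% in windows of genes tested, and 1.63% and 16.3% in all 32851 windows. The members' CArG share rests on 3 windows. The median member window held 16 CpG dinucleotides, against 20 for windows of genes tested and 7 for all windows. These matches describe letters in these windows and nothing about binding.

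In the muscle list, 3 of 4 members were called in each strain, 1 rise and 2 falls, and the median log2 fold changes were -0.69 in BL6 and -0.42 in MRL. Zfp697 (chr3:98382461-98753812, plus strand), an RNA-binding regulator of muscle remodelling, was at 1.95, 1.58, 1.56 and 1.299 CPM in unoperated and 7.55, 3.91, 3.83 and 3.78 in operated BL6 (log2 fold change 1.57, SE 0.24, edgeR adjusted p = 6.5e-05). In MRL it was at 1.53, 2.17, 1.68 and 2.09 and 3.82, 3.95, 3.59 and 4.21 CPM (log2 fold change 1.06, SE 0.23, edgeR adjusted p = 0.0035). The groups did not overlap in either strain, and operated BL6 replicate 1 lay above the rest.

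Zfp609 (chr9:65692391-65827564, minus strand), a regulator of myoblast proliferation, fell. It was at 24.8, 24.3, 31.2 and 31.1 CPM in unoperated and 8.76, 9.45, 8.38 and 9.95 in operated BL6 (log2 fold change -1.61, SE 0.23, edgeR adjusted p = 4.59e-05) and at 13.3, 22.1, 27.6 and 19.9 and 8.53, 8.81, 9.91 and 17.2 in MRL (log2 fold change -0.89, SE 0.22, edgeR adjusted p = 0.00659). In MRL the groups overlapped at operated replicate 4, without which the log2 fold change was -1.19 with adjusted p = 0.000224. Zfp422, a regulator of myogenic differentiation, did not pass the test (0.23, adjusted p = 0.0616 in BL6; 0.06, adjusted p = 0.666 in MRL).

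Fat cell markers rose while none of the listed regulators of fat cell formation did. The adipocyte markers Adipoq, Cidec, Fabp4 and Plin1 rose in both strains, from a summed 208 to 279 CPM to 1209 to 1656 in BL6 and from 262 to 369 to 1086 to 1902 in MRL. Of the 4 Zfp regulators, 0 rose and 2 fell in each strain, with median log2 fold changes of -0.44 in BL6 and -0.50 in MRL. Zfp467 (chr6:48427697-48445825, minus strand), which promotes fat cell differentiation, was at 24.5, 31.7, 31.03 and 28.5 CPM in unoperated and 16.2, 28.9, 17.04 and 15.5 in operated BL6 (log2 fold change -0.58, SE 0.19, edgeR adjusted p = 0.013) and at 53.8, 48.1, 47.1 and 43.7 and 23.8, 30.9, 25.6 and 18.5 in MRL (log2 fold change -0.96, SE 0.19, edgeR adjusted p = 0.00195). Operated BL6 replicate 2 lay among the unoperated BL6 samples, and in MRL the groups did not overlap. Its unoperated level was higher in MRL than in BL6 without overlap (0.74, adjusted p = 0.0175).

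Zfp423, which commits precursors to the fat lineage, did not pass the test in either strain (-0.14, adjusted p = 0.456 in BL6; 0.14, adjusted p = 0.49 in MRL). Zfp516, a brown fat regulator, fell in BL6 (-0.67, adjusted p = 0.015; 0.0506 without operated replicate 1) and not by the test in MRL (-0.44, adjusted p = 0.115), where leaving out operated replicate 4 gave -0.74 with adjusted p = 0.00448. Zfp521, which holds back fat cell formation, was called in MRL (-0.55, adjusted p = 0.0276, up to 0.0888 when 1 of 4 libraries, unoperated 2 or 3 or operated 1 or 2, was left out). In BL6 it was not called (-0.30, adjusted p = 0.166), and without operated replicate 4 it was at -0.57 with adjusted p = 0.00485.

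Of the silencers of imprinted genes and retroelements, 5 of 7 listed genes were measured; 1 rose and 2 fell in BL6, 1 rose and 0 fell in MRL, and the medians were 0.02 and 0.12. Beside Zfp57, described above, Zfp445, the other keeper of imprints, fell in BL6 from 94.1 ± 4.49 CPM (SD, n = 4) to 66.6 ± 13.9 (log2 fold change -0.50, SE 0.13, edgeR adjusted p = 0.00427) and was not called in MRL (-0.13, adjusted p = 0.44). Zfp568, a repressor of a placental form of Igf2, fell in BL6 (-0.74, adjusted p = 0.0172; 0.0516 without unoperated replicate 1) and was not called in MRL (-0.23, adjusted p = 0.465), where operated replicate 4 was at 19.2 CPM and the other operated samples at 7.47 to 8.57. Without that library the log2 fold change in MRL was -0.68 with adjusted p = 0.00256. Zfp809 and Zfp932, which silence retroviral sequences, changed little on the log2 scale (0.02 and 0.08 in BL6, 0.13 and 0.12 in MRL, none called). Of the listed KRAB corepressor symbols 17 of 19 were tested, where Fam208a and Tasor are names of the same gene. In BL6 3 rose (17.6%, all genes 35.1%) and 8 fell (47.1%, all genes 32.8%). In MRL 3 rose (17.6%, all genes 22.3%) and 4 fell (23.5%, all genes 22.7%). Trim28 itself was not called in either strain (log2 fold change 0.17 and 0.08).

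Of 9 chromatin and promoter regulators, 1 rose (11.1%, all genes 35.1%) and 6 fell (66.7%, all genes 32.8%) in BL6. In MRL 0 rose (all genes 22.3%) and 2 fell (22.2%, all genes 22.7%), a share of falls at the background, and the medians were -0.27 and -0.24. Zfp462, which works with heterochromatin enzymes, was at 24.7, 22.2, 24.7 and 24.2 CPM in unoperated and 11.1, 9.61, 10.6 and 12.3 in operated BL6, a clear separation (log2 fold change -1.13, SE 0.18, edgeR adjusted p = 0.000102). In MRL it was at 17.4, 21.9, 23.4 and 17.1 and 12.3, 10.8, 15.9 and 22.2 CPM and was not called (-0.38, adjusted p = 0.0924), but without operated replicate 4 it was at -0.62 with adjusted p = 0.00331. Zfp148 fell in both strains (-0.72, adjusted p = 3.03e-05 in BL6; -0.38, adjusted p = 0.00614 in MRL). Zfp410, the activator of Chd4, also fell in both (-0.26, adjusted p = 0.0104 in BL6; -0.39, adjusted p = 0.00255 in MRL), and Chd4 changed by -0.42 in BL6 (adjusted p = 0.011) and -0.13 in MRL (adjusted p = 0.444).

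The others were called in BL6 alone or not at all. Zfp292 and Zfp281 fell in BL6 (-0.84, adjusted p = 0.000121; -0.47, adjusted p = 0.00441). Zfp143, which recruits the transcription machinery at many promoters, passed narrowly (-0.27, adjusted p = 0.0482) and was called in 10 of 27 other settings. Its call was lost on leaving out unoperated BL6 replicate 1, 2, 3 or 4, operated BL6 replicate 3 or 4, unoperated MRL replicate 2, 3 or 4 or operated MRL replicate 2 or 3 (adjusted p up to 0.138). Zfp703, a corepressor, was the 1 that rose in BL6 (0.51, adjusted p = 0.00566); in MRL it was at -0.30, adjusted p = 0.0955, or -0.38 with adjusted p = 0.0423 without operated replicate 4. Zfp217 and Zfp335 were not called in either strain; Zfp335 passed in BL6 without unoperated replicate 3 (adjusted p = 0.0477) or operated replicate 2 (0.0214).

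Of 6 members that act in translation, ubiquitination, the spindle or splicing, 2 rose and 3 fell in BL6 and 1 rose and 2 fell in MRL, with medians of -0.04 and -0.13. The 2 that rose in BL6 both serve the large ribosomal subunit. Zfp622 (chr15:25984366-25998481, plus strand) was at 17.9, 19.6, 19.6 and 20.8 CPM in unoperated and 38.9, 39.1, 32.1 and 27.2 in operated BL6 (log2 fold change 0.82, SE 0.14, edgeR adjusted p = 0.000153). Zfp593 went from 7.85 ± 0.963 CPM (SD, n = 4) to 14.3 ± 2.35 (log2 fold change 0.86, SE 0.15, edgeR adjusted p = 0.000228).

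In MRL both were lower in operated replicate 4 than in the other operated samples. Zfp622 was at 23.6, 18.8, 18.4 and 19.1 and 27.5, 28.2, 27.8 and 19.5 CPM (log2 fold change 0.37, SE 0.14, edgeR adjusted p = 0.0416), was called in 15 of 27 other settings and lost its call when unoperated MRL replicate 2, 3 or 4, operated MRL replicate 1, 2 or 3 or unoperated BL6 replicate 2, 3 or 4 was left out (adjusted p up to 0.108). Zfp593 was not called in MRL (0.27, adjusted p = 0.162; 0.38 with adjusted p = 0.0393 without operated replicate 4). Zfp91 (chr19:12763660-12796126, minus strand), a ubiquitin ligase and the second most abundant member by CPM, was at 197, 184, 226 and 253 CPM in unoperated and 74.6, 89.3, 61.8 and 59.5 in operated BL6 (log2 fold change -1.59, SE 0.20, edgeR adjusted p = 2.27e-05) and fell in MRL too (-0.80, adjusted p = 0.00605; difference between the changes 0.79, adjusted p = 0.216). Zfp830, which takes part in splicing, fell in both (-0.99, adjusted p = 0.000244 in BL6; -0.55, adjusted p = 0.0205 in MRL, up to 0.0722 when unoperated replicate 4 or operated replicate 1, 2 or 3 was left out). Zfp207, a spindle protein, fell in BL6 (-0.21, adjusted p = 0.0279; up to 0.072 when unoperated replicate 1 or 4 or operated replicate 3 or 4 was left out), and Zfp598, a sensor of collided ribosomes, was not called in either strain.

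Other families with zinc fingers in their names or proteins were counted beside the Zfp genes, against 35.1% rises and 32.8% falls over all genes in BL6 and 22.3% and 22.7% in MRL. Of 36 Zbtb genes, 6 rose (16.7%) and 22 fell (61.1%) in BL6, and 1 rose (2.78%) and 13 fell (36.1%) in MRL. Of 13 Zc3h genes, 1 rose (7.69%) and 7 fell (53.8%) in BL6, and 1 rose (7.69%) and 3 fell (23.1%) in MRL, where the falls were near the background. Of 15 Zscan and Zkscan genes, 3 rose (20%) and 6 fell (40%) in BL6, and 1 rose (6.67%) and 6 fell (40%) in MRL. Of 19 Zdhhc genes, whose fingers belong to palmitoyltransferases, 6 rose (31.6%) and 9 fell (47.4%) in BL6, and 3 rose (15.8%) and 8 fell (42.1%) in MRL. Of 13 Klf genes, 9 rose (69.2%) and 3 fell (23.1%) in BL6, and 4 rose (30.8%) and 3 fell (23.1%) in MRL. The Klf genes thus had more rises than falls in both strains, the reverse of the Zfp counts; the difference between families was not tested.

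Members were also sorted by the number of linkers in their longest complete coding sequence. In BL6, where 35.1% of all genes rose and 32.8% fell, 19 of 83 members with no linker rose (22.9%) and 34 fell (41.0%). Of 84 members with 1 to 4 linkers, 6 rose (7.1%) and 41 fell (48.8%), and of 101 members with 5 or more, which is the layout of the sequences printed above, 10 rose (9.9%) and 50 fell (49.5%). In MRL, where 22.3% of all genes rose and 22.7% fell, the falls were nearly alike in the 3 classes: 22 (26.5%) with no linker, 22 (26.2%) with 1 to 4 and 27 (26.7%) with 5 or more, beside 10 (12%), 4 (4.8%) and 15 (14.9%) rises. The median log2 fold change was -0.15, -0.24 and -0.34 in BL6 and -0.091, -0.15 and -0.18 in MRL, in the same order. The difference between classes was not tested.

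The strains differed in few Zfp genes before surgery. Among unoperated samples 30 of 271 members (11.1%) were called, against 10.4% of all genes: 15 were higher in MRL (5.54%, all genes 5.02%) and 15 were lower (5.54%, all genes 5.36%). These shares were near the background. Without unoperated MRL replicate 1 there were 9 higher members (3.3%, all genes 3.49%). Without operated MRL replicate 4, which enters through the shared spread, there were 24 lower members (8.9%, all genes 7.37%). With total-count scaling 15 were higher and 6 lower, so that 71.4% of the members' calls were higher in place of 50%; over all genes the share went from 48.4% to 70.4%. The median over members turned from -0.05 to 0.09, and that over all genes went from 0.01 to 0.15.

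After surgery more members were higher in MRL. Among operated samples 47 of 271 (17.3%) were called, against 12.9% of all genes: 33 were higher in MRL (12.2%, all genes 7.6%) and 14 lower (5.17%, all genes 5.27%). The median member was 0.12 higher in MRL on the log2 scale, against -0.01 over all genes. Without operated MRL replicate 4 the members' median was 0.06, with 28 higher (10.3%, all genes 5.67%) and 14 lower (5.2%, all genes 5.0%). In a fit to the operated samples alone, where the spread rests on 8 samples, 8 members were higher (3.0%, all genes 2.59%) and 4 lower (1.5%, all genes 2.32%), so that the excess was near the background there. Between the unoperated and operated comparisons, which share no samples but share 1 estimate of spread, 12 calls were common (40% of 30 and 25.5% of 47). Of these, 7 were higher and 5 lower in MRL both times. Over all genes tested the common calls were 50.2% and 40.5%, so the overlap among members was no larger than elsewhere. Differences of at least 2-fold were called for 2 higher and 3 lower members before surgery (0.7% and 1.1%, all genes 2.16% and 1.83%). After surgery they were called for 4 higher and 3 lower members (1.5% and 1.1%, all genes 1.65% and 1.88%).

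Zfp949 (chr9:88548020-88571061, plus strand) had the largest excess in MRL both times. It was at 9.04, 10.1, 11.5 and 10.7 CPM in unoperated BL6 and 25.5, 21.5, 25.8 and 16.8 in unoperated MRL (log2 fold change 1.11, SE 0.18, edgeR adjusted p = 0.000543). After surgery it was at 6.38, 8.68, 6.77 and 6.14 CPM in BL6 and 30.5, 21.95, 39.5 and 25.6 in MRL (log2 fold change 2.07, SE 0.19, edgeR adjusted p = 1.12e-06). Every MRL sample lay above every BL6 sample, and the mean fell with surgery in BL6 (-0.57, adjusted p = 0.0125) while the change in MRL did not pass the test (0.39, adjusted p = 0.079); the difference between those changes was 0.96 with adjusted p = 0.128.

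Zfp979 (chr4:147611937-147642513, minus strand) had few counts in MRL. It was at 4.75, 3.47, 3.36 and 3.92 CPM in unoperated and 7.39, 5.23, 4.62 and 3.895 in operated BL6. In MRL its counts were 2, 2, 6 and 6 in unoperated and 14, 4, 19 and 10 in operated samples, where 3 counts are the floor used here. The fitted differences were -5.02 (SE 0.46, edgeR adjusted p = 1.21e-06) among unoperated and -3.70 (SE 0.40, adjusted p = 1.01e-05) among operated samples, and their exact size depends on the few MRL counts. As given above, 32.4% of the 31-base words of Zfp979 also occur in another gene. The only genome build named in the processing notes is mm10, for both strains. Whether MRL reads that differ from that build were lost was not tested, for Zfp979 or for the other strain differences.

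**Figure D4:**
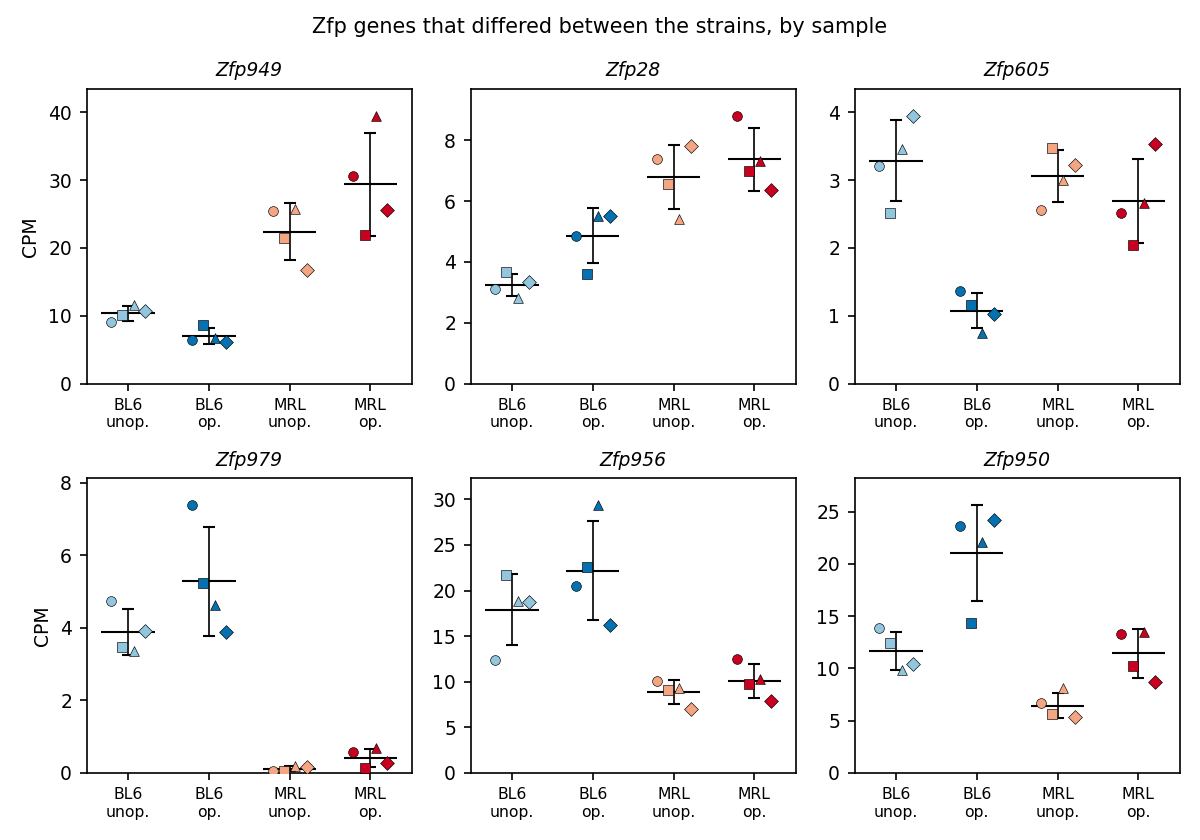
CPM of 6 Zfp genes in each of the 16 samples (y axes, linear from 0), by group; marker shapes are replicates 1 (circle), 2 (square), 3 (triangle) and 4 (diamond), and lines with bars are the mean and SD of 4 samples. Zfp949 and Zfp28 are higher in MRL and Zfp979, Zfp956 and Zfp950 lower, before and after surgery; Zfp605 is low in the 4 operated BL6 samples alone.

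Beside Zfp949, the largest excesses of unoperated MRL were in Zfp28, Zfp90, Zfp862-ps and Zfp9. Zfp28 was at 3.12, 3.69, 2.83 and 3.36 CPM in BL6 and 7.397, 6.57, 5.42 and 7.83 in MRL (log2 fold change 1.07, SE 0.17, edgeR adjusted p = 0.000449), and remained higher after surgery (0.60, adjusted p = 0.0283). Zfp9 was at 8.41, 8.98, 8.88 and 8.31 and 13.5, 14.3, 16.6 and 15.9 CPM (log2 fold change 0.81, SE 0.14, edgeR adjusted p = 0.00122). Both were higher in every unoperated MRL sample than in any unoperated BL6 sample. Zfp90, a KRAB protein (0.93, adjusted p = 0.0209), lost its call without unoperated MRL replicate 1 (0.69, adjusted p = 0.0895) or unoperated BL6 replicate 3 (0.0767) or 4 (0.0738), and the pseudogene Zfp862-ps (0.84, adjusted p = 0.0252) lost its call when any of the 4 unoperated BL6 libraries (adjusted p up to 0.0717) or unoperated MRL replicate 1, 2 or 3 was left out (up to 0.0669).

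The deficits in unoperated MRL were led, after Zfp979, by Zfp503 (-1.48, adjusted p = 0.00289), Zfp956, Zfp182 and Zfp950. Zfp956 (chr6:47953390-47965300, plus strand) was at 12.4, 21.7, 18.8 and 18.7 CPM in BL6 and 10.03, 9.12, 9.32 and 7.04 in MRL (log2 fold change -1.01, SE 0.20, edgeR adjusted p = 0.00297) and stayed lower after surgery, at 20.5, 22.6, 29.4 and 16.3 against 12.5, 9.71, 10.3 and 7.897 (log2 fold change -1.14, SE 0.20, edgeR adjusted p = 0.00114). Surgery itself changed it in neither strain by the test. Zfp950 was lower in MRL before (-0.85, adjusted p = 0.0087) and after surgery (-0.88, adjusted p = 0.00588), and rose with surgery in both strains (0.86, adjusted p = 0.00118 in BL6; 0.83, adjusted p = 0.00478 in MRL; difference -0.03, SE 0.27). Zfp182 was lower in unoperated MRL (-0.90, adjusted p = 0.021), with adjusted p from 0.052 to 0.0695 when unoperated BL6 replicate 1 or 2 or unoperated MRL replicate 3 or 4 was left out, and its rise with surgery was 0.74 in BL6 and 1.18 in MRL (adjusted p = 0.01 and 0.00227).

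Among operated samples the largest excesses of MRL after Zfp949 were in Zfp605, Zfp160, Zfp758 and Zfp729a, and all 4 had groups that did not overlap. Zfp160 (chr17:21008903-21043070, plus strand) was at 9.81, 9.18, 7.95 and 7.02 CPM in BL6 and 19.7, 17.3, 18.7 and 14.9 in MRL (log2 fold change 1.06, SE 0.12, edgeR adjusted p = 2.33e-05). Zfp758 was at 3.15, 3.25, 2.94 and 2.27 and 5.68, 5.76, 5.08 and 7.37 CPM (log2 fold change 1.05, SE 0.17, edgeR adjusted p = 0.000728), against 7.28 ± 1.34 and 8.37 ± 1.15 (SD, n = 4) before surgery, where it was not called (0.20, adjusted p = 0.503). Zfp729a was 0.93 higher in MRL (adjusted p = 0.00131). Lower in operated MRL were Zfp963 (-1.06, adjusted p = 0.00177) and Zfp94 (-0.71, adjusted p = 0.00951), beside Zfp979, Zfp956 and Zfp950.

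With gaps of at most 500000 bases between neighbours, 105 of the 271 members fell into 12 clusters of 5 or more, and 166 lay outside them. The clusters named were chosen after their values were seen. Between operated strains 7.6% of all genes were higher and 5.27% lower in MRL. The largest cluster, with 16 members from Zfp160 to Zfp213 at chr17:21008903-23564238, had 5 members higher and 0 lower in operated MRL than in operated BL6, and the next, with 12 members from Zfp759 to Zfp493 at chr13:67121660-67792512, also had 5 higher and 0 lower. A cluster of 10 from Zfp398 to Zfp775 at chr6:47835661-48623227 had 0 higher and 2 lower, and a median of -0.13. Inside clusters 15 of 105 members were higher in operated MRL (14.3%) and 7 lower (6.7%), and outside them 18 of 166 were higher (10.8%) and 7 lower (4.2%). A cluster of 12 at chr7:29768552-30169750, from Zfp84 to Zfp146, had 1 rise and 8 falls with surgery in BL6 and 1 rise and 5 falls in MRL. A cluster of 6 at chr7:4915217-5053723, from Zfp628 to Zfp580, had 3 rises and 1 fall in BL6 and a median log2 fold change of 0.33. In BL6 35.1% of all genes rose and 32.8% fell, and in MRL 22.3% rose and 22.7% fell. The median share of a member's 31-base words found in another gene was 22.95% in the chromosome 13 cluster and 14.26% in the Zfp628 cluster. It was 7.46% in the largest, and at the other end 0.86% in the Zfp84 cluster.

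Whether the response to surgery differed between strains was tested directly by the interaction, the change in MRL minus the change in BL6. None of the 271 members was called by edgeR (0%), against 0.248% of all genes (0.154% more positive and 0.0939% more negative in MRL, of which 0.0854% and 0.0854% by at least 2-fold). Limma-voom also called 0, while DESeq2 called 7 with a more positive and 1 with a more negative change in MRL (all genes 1.26% and 0.88%). At an unadjusted p under 0.05 there were 50 members (18.5%), against 1843 of all genes (15.7%); 42 of the 50 were more positive in MRL and 8 more negative, against 1005 and 838 of all genes. The interaction was positive for 176 members and negative for 95, and its median was 0.14 on the log2 scale against -0.01 over all genes. Without operated MRL replicate 4 the median was 0.10.

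The 3 members with the lowest interaction p-values all fell in BL6. Zfp367 (chr13:64133018-64153202, minus strand) was at 20.7, 23.7, 23.6 and 26.6 CPM in unoperated and 9.32, 10.3, 8.52 and 6.85 in operated BL6, and at 18.1, 22.95, 23.9 and 22.7 and 13.2, 14.9, 17.3 and 16.8 in MRL. Its log2 fold changes were -1.44, adjusted p = 6.91e-06 in BL6 and -0.49, adjusted p = 0.00917 in MRL, and the difference between those changes was 0.95 (SE 0.19, edgeR adjusted p = 0.0537). It was called in 3 of 26 other settings, with adjusted p from 0.00201 with DESeq2 to 0.14, and at 0.0299 without operated BL6 replicate 2.

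Zfp605 (chr5:110110092-110129794, plus strand) was at 3.21, 2.51, 3.46 and 3.95 CPM in unoperated and 1.37, 1.16, 0.752 and 1.02 in operated BL6, and at 2.57, 3.48, 2.999 and 3.22 and 2.52, 2.05, 2.66 and 3.53 in MRL. All 4 operated BL6 samples lay below the other 12 samples, and the interaction was 1.42 (SE 0.32, edgeR adjusted p = 0.0791; range over settings 0.00488 to 0.192). Zfp503, a developmental corepressor related to Zfp703, was at 7.36, 15.4, 22.8 and 20.999 CPM in unoperated and 4.803, 4.45, 4.47 and 6.77 in operated BL6, and at 5.93, 4.32, 7.32 and 6.39 and 6.62, 4.79, 6.04 and 8.29 in MRL. High values were thus found in 3 of the 4 unoperated BL6 samples, and the interaction was 1.80 (SE 0.41, edgeR adjusted p = 0.0835; range 0.00548 to 0.221, and 0.0367 without unoperated BL6 replicate 1, the low one).

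**Figure D5:**
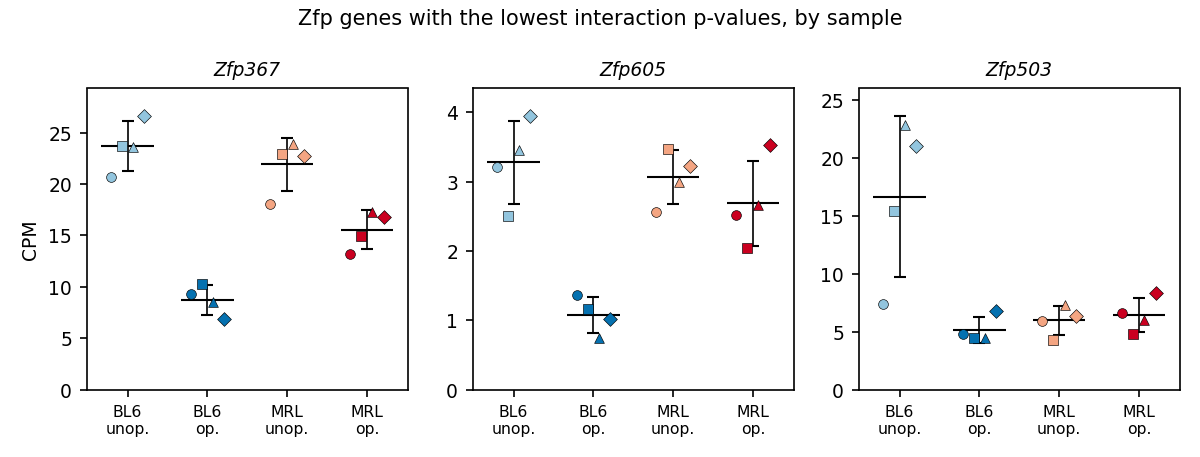
CPM of the 3 Zfp genes with the lowest interaction p-values in each of the 16 samples (y axes, linear from 0), by group; marker shapes are replicates 1 (circle), 2 (square), 3 (triangle) and 4 (diamond), and lines with bars are the mean and SD of 4 samples. The operated BL6 samples are below all unoperated BL6 samples for each gene, and none of the 3 differences passed an adjusted p of 0.05 with edgeR.

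In the authors' deposited table of edgeR results, 36 members were higher and 120 lower with surgery in BL6, 34 and 81 in MRL, 14 and 15 for MRL over BL6 among unoperated and 32 and 12 among operated samples, at a false discovery rate under 0.05. The share over all genes in that table was not computed here, so these counts are given without a background. Of the calls made here, 151 of 160, 97 of 100, 26 of 30 and 38 of 47 were also called there, all in the same direction.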

How the data were processed

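RNA sequencing was analysed from 16 samples of mouse rotator cuff muscle. The authors' deposited table holds whole-number counts per gene, one column per sample, without normalization as far as its values show. A second deposited table gives the authors' log2 fold changes, p-values and false discovery rates for 4 comparisons per the file headers. FastQC, STAR, edgeR and the build mm10 are named in the submitters' processing notes; the counting program, its use of strand and the rule that kept genes of very low expression out of the table are not given in the sources used here.

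With R 4.3.3 and edgeR 4.0.16, counts were scaled by TMM, filterByExpr (minimum count 10) kept 11709 of 11710 genes, and edgeR's quasi-likelihood fit used the 4 groups of all 16 samples together, which then share 1 estimate of spread. P-values were adjusted by Benjamini-Hochberg over the 11709 genes; calls are adjusted p-values under 0.05. The printed SE is the absolute log2 fold change divided by the square root of the test's F value. The floor of 3 counts equals 0.0689 to 0.123 CPM per sample and covers counting error only. No replicate pair agreed within sampling noise. The fit was also run on simulated counts in which few genes changed, in 1 group only. That run does not test the scaling where many genes change, as here.

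Members and lists were chosen with earlier results of these data known. Named genes are, per surgery or strain comparison, the 5 called members with the largest rise and fall (mean of at least 2 CPM, groups not overlapping), the 3 lowest interaction p-values, the highest level per kb and the role lists. Chd4, Trim28, Zfp768 and Zfp651 were named outside the rule, as were the clusters and the adipocyte markers, after values were seen. Protein classes (KRAB, finger counts) were not computed; instead linkers were counted in frame in the longest complete GENCODE M21 coding sequence of 268 members (pattern ACNGGNGANAANCCN). That pattern, the promoter motifs, the level bands, the 10% and 500000 base limits and the printed sequences were chosen after the data were seen. All 271 IDs matched GENCODE M21 (GRCm38), whose coordinates are printed, 1-based. Alternatives covered scaling, filtering, DESeq2 1.42.0, limma 3.58.1, thinning, a replicate block and leaving out libraries.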

Additional observations from a re-analysis of the deposited data

Results flagged for a closer look

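In 58 named Zfp genes, 232 groups of 4 values were examined, and in 21 of them 1 sample lay far from the other 3 (its gap to the nearest other sample, as a share of the group's range, passed Dixon's 95% limit, which chance gives in about 1 in 20 groups). Operated MRL replicate 4 held 8 of the 21. It was high for Zfp106 (825.8 CPM, others 228 to 254), Zfp516 (23.8, others 11.9 to 13.4), Zfp568 (19.2, others 7.47 to 8.57), Zfp609 (17.2, others 8.53 to 9.91) and Zfp687 (15.8, others 8.41 to 9.09). It was low for Zfp593 (7.897 CPM, others 10.97 to 11.5), Zfp622 (19.5, others 27.5 to 28.2) and Zfp948 (8.87, others 17.3 to 18.2). In each of these 8 genes it lay on the side of the unoperated samples.

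Operated BL6 replicate 4 was high for Zfp185 (13.8 CPM, others 4.94 to 5.58), Zfp423 (13.1, others 8.72 to 9.31) and Zfp503 (6.77, others 4.455 to 4.803). Operated BL6 replicate 1 was high for Zfp697 (7.55 CPM, others 3.78 to 3.91) and Zfp948 (16.6, others 12.1 to 12.4). Zfp467 was at 28.9 CPM in operated BL6 replicate 2 (others 15.5 to 17.04). Zfp94 was at 5.44 CPM in operated BL6 replicate 3 (others 3.51 to 3.72) and at 2.99 CPM in unoperated BL6 replicate 3 (others 3.44 to 3.48), where Zfp422 was also low at 7.003 CPM (others 8.19 to 8.34). Unoperated MRL replicate 1 was high for Zfp622 (23.6 CPM, others 18.4 to 19.1) and Zfp90 (6.97, others 3.78 to 4.32). Unoperated MRL replicate 3 was high for Zfp729a (8.42 CPM, others 6.48 to 6.77) and Zfp970 (3.26, others 1.47 to 1.65).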

How the results depend on the processing

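Among the results for named genes, 62 kept both their direction and their side of the threshold under every alternative run. The other results changed in direction, in side or in both under some alternative. The counts of called members differed by over 1.5 times as follows. Asking for a 2-fold change left 10 higher and 26 lower members with surgery in BL6, 9 and 5 in MRL, 2 and 3 between unoperated and 4 and 3 between operated strains. Their shares beside those of all genes are given above. Total-count scaling left 83, 39, 6 and 8 lower members in the same order, with medians of -0.11, -0.078, 0.091 and 0.16 and an interaction median of 0.059; the median over all genes was then 0.18, 0.06, 0.15, 0.04 and -0.10. Among operated strains the higher share of calls became 80% in place of 70.2%. DESeq2 called 27 lower members between unoperated strains and, for the interaction, 7 higher and 1 lower. Fitting only the groups compared gave 27 higher and 29 lower between unoperated and 8 and 4 between operated strains. Thinning gave 1 higher member in the interaction (0.4%, all genes 0.154%).

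Leaving out 1 library at a time gave 31 to 40 higher and 112 to 126 lower members in BL6, 19 to 34 and 44 to 87 in MRL, 9 to 19 and 10 to 24 between unoperated strains, 22 to 39 and 10 to 17 between operated strains, and 0 to 1 and 0 to 0 for the interaction. In BL6 these were 11.4 to 14.8% and 41.3 to 46.5%, against 31.2 to 35.8% and 30.2 to 34.3% of all genes. In MRL they were 7.0 to 12.5% and 16.2 to 32.1%, against 14.9 to 26.3% and 14.9 to 27.8%. Between unoperated strains they were 3.3 to 7.0% and 3.7 to 8.9%, against 3.22 to 6.54% and 3.65 to 7.37%. Between operated strains they were 8.1 to 14.4% and 3.7 to 6.3%, against 4.73 to 9.8% and 3.97 to 6.03%. For the interaction all genes were at 0.00854 to 0.41% and 0 to 0.179%. The members' medians ran from -0.29 to -0.24, -0.15 to -0.12, -0.075 to -0.029, 0.056 to 0.13 and 0.10 to 0.17. Without both libraries rich in macrophage markers the counts were 34 and 123, 36 and 79, 13 and 13, and 33 and 16. These were 12.5% and 45.4%, 13.3% and 29.2%, 4.8% and 4.8%, and 12.2% and 5.9% of members. All genes were then at 32.7% and 31.6%, 29.1% and 25.8%, 4.55% and 5.12%, and 8.1% and 5.96%. Without operated MRL replicate 4 as well, chosen after seeing the data, they were 35 and 129, 38 and 95, 17 and 19, and 31 and 15, and the BL6 median was -0.31.

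Replicate numbers occur in the titles only. The mean correlation of same-numbered deviations was -0.141 between the BL6 groups and at most 0.165 elsewhere. It was 0.165 between operated strains, 0.16 between unoperated strains and 0.092 between the MRL groups. For different numbers it was 0.0531 between the BL6 groups and, in the same order, -0.0443, -0.0463 and -0.0405. Means over so few pairs cannot decide whether the numbers pair samples. With the replicate number as a block there were 36 higher and 127 lower members in BL6, 28 and 70 in MRL, 14 and 17 between unoperated strains, 29 and 15 between operated strains and 0 for the interaction. In the first 4 comparisons these were 13.3% and 46.9%, 10.3% and 25.8%, 5.2% and 6.3%, and 10.7% and 5.5% of members. All genes were then at 34.6% and 33.2%, 21.6% and 22.8%, 4.69% and 5.1%, and 6.58% and 4.99%. For the interaction all genes were at 0.00854% each way.

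Direction turned only for genes near 0. Zfp423 in BL6 was 0.042 with total-count scaling. Zfp217 in MRL was 0.044 with total-count scaling, 0.063 with limma-voom, 0.019 with the replicate block, 0.24 without both and 0.19 without all 3 doubted libraries, and in BL6 it was -0.013 with TMM without mitochondrial genes, -0.021 with only the groups compared, -0.12 and -0.14. Zfp809 in BL6 was -0.0055 with only the groups compared, -0.056 when thinned, -0.039 and -0.060. With 1 library left out, Zfp217 ran from -0.12 to 0.073 in BL6 and -0.13 to 0.24 in MRL, Zfp809 from -0.061 to 0.11 in BL6, and Zfp932 from -0.052 to 0.17 in BL6 and -0.029 to 0.19 in MRL. The cause of these changes was not tested.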
